A study of Homo sapiens with 12 samples.

Results

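The genes described here are 10 transcription factors and effectors of the integrated stress response: ATF4, CEBPG, CEBPB, ATF3, DDIT3, ATF5, NUPR1, TRIB3, PPP1R15A and CHAC1. They were picked by gene symbol as regulators and effectors of the ATF4 arm, not by a threshold on their values, and they are 10 of the 54553 genes in the deposited tables of each sample. All 10 passed the filter on low counts and are among the 18047 genes tested. RNA sequencing was done on wild-type Caco-2 cells, which derive from a human colorectal adenocarcinoma and serve as a model of intestinal epithelium. The 12 libraries form 4 groups of 3, and all cells were treated for 48 h while sub-confluent. The groups were depleted medium with 100 nM bafilomycin A1 (BafA1), rich medium with 100 nM BafA1, depleted medium with vehicle, and rich medium with vehicle. Rich medium was EMEM with 1 g/L glucose, 2 mM glutamine and 20% fetal bovine serum. Depleted medium was DMEM made without glucose and glutamine, to which 0.1 g/L glucose, 0.2 mM glutamine and 1% serum were added. Pyruvate, non-essential amino acids and antibiotics were present in both media. Glucose, glutamine, serum and the basal formula thus changed together between media, and their effects cannot be told apart. BafA1 blocks the vacuolar proton pump that acidifies lysosomes.

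The integrated stress response starts when one of the kinases GCN2, PERK, PKR or HRI phosphorylates the translation initiation factor eIF2α. General protein synthesis then slows, while upstream open reading frames in the ATF4 mRNA allow more ATF4 protein to be made, so ATF4 is controlled at translation as well as at its mRNA. ATF4 pairs with C/EBP proteins at C/EBP-ATF response elements and turns on genes of amino acid supply, redox balance and cell death, among them a phosphatase subunit that reverses eIF2α phosphorylation. RNA sequencing measures mRNA levels, and neither eIF2α phosphorylation nor ATF4 protein was measured in these libraries.

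The libraries held 12969814 to 51649213 reads assigned to genes. The shallowest was rich medium with vehicle replicate 1, and the other 11 held at least 33859998. Replicate 3 of rich medium with BafA1 stood apart from the others treated alike. Across genes it had a Spearman rho of 0.985 with each of them, but of 0.990 with replicate 3 of depleted medium with vehicle. Many values and counts of the 10 genes and of the lists that moved with its removal are therefore given with and without it. Others that moved are not, so a figure given only once may also have moved. Of 10 epithelial markers, 7 exceeded 1 CPM in all libraries, while CDX1 was at 0 in 11 libraries and KRT20 at 0 in 2. The summed epithelial markers stood at 2707 to 3212 CPM in depleted medium with BafA1, 5240 to 6562 CPM in rich medium with BafA1, 4429 to 5380 CPM in depleted medium with vehicle and 6563 to 9310 CPM in rich medium with vehicle. Single markers in this sum spread unequally over the libraries, with KRT8 at 693 to 5490 CPM and KRT18 at 233 to 1814 CPM. CDH1 lay at 1032 to 1980 CPM, EPCAM at 271 to 751 CPM, VIL1 at 129 to 314 CPM and CDX2 at 43.8 to 166 CPM. Summed fibroblast, leukocyte and endothelial markers lay between 1.55 and 55.9 CPM. The part of this epithelial marker difference in the results below was not tested.

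Levels of different genes are compared here per length, in the TPM values deposited by the authors, which divide reads by gene length and library size. ATF4 was the most abundant of the 10 mRNAs in every group, with mean TPM levels of 628 ± 47.1 in depleted medium with BafA1, 518 ± 48 in rich medium with BafA1, 551 ± 111 in depleted medium with vehicle and 447 ± 169 in rich medium with vehicle (SD, n = 3 each). TRIB3 came next in every group, with mean TPM levels of 387, 154, 173 and 91.9 in the same order of groups, and its libraries overlapped neither ATF4 nor the gene below it. NUPR1 was the least abundant, at 2.00, 0.806, 1.18 and 0.180 TPM. Its deposited length, by which its reads were divided, was 5291 to 5299 bases, the longest of the 10 genes. The part of this length in its low TPM was not tested. DDIT3 was in the third place in depleted medium, at 164 TPM with BafA1 and 91.2 TPM with vehicle, where its libraries overlapped those of CEBPB below it. In rich medium with vehicle DDIT3 was in the sixth place at 21.6 TPM, in a run from CEBPG (29.1 TPM) to CHAC1 (11.3 TPM) in which each gene's libraries overlapped those of the next gene in the order. TPM and TMM-scaled CPM shift the median of all genes against each other by -0.35 to 0.30 on the log2 scale. Groups are therefore compared from here on in TMM-scaled CPM. It divides reads by library size times a TMM scaling factor for each library, and not by gene length.

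**Figure D1:**
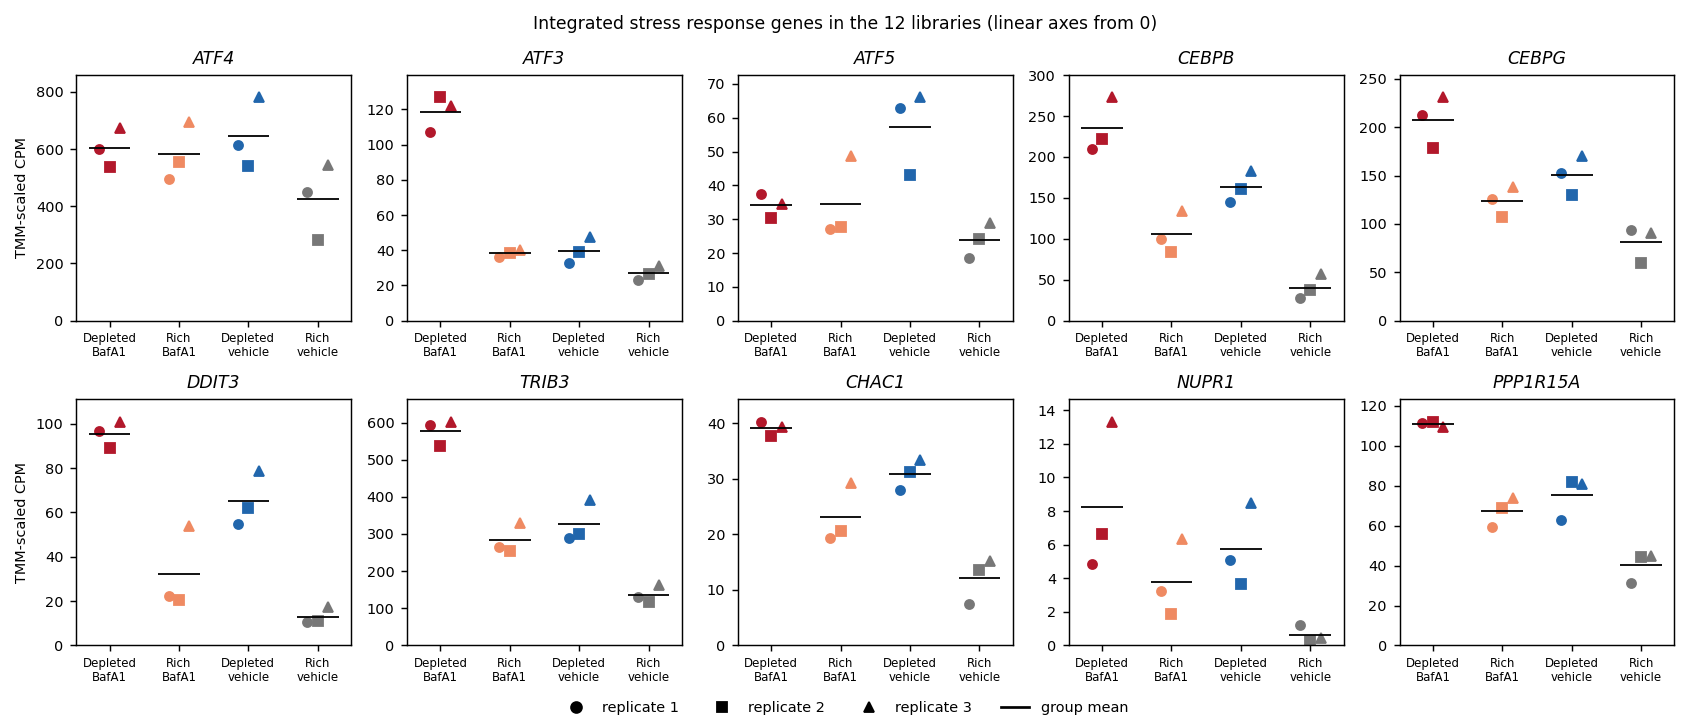
TMM-scaled CPM of each gene (y axis, linear, from 0) in the 4 groups (x axis), with each point 1 library and each line the group mean. For 9 genes the libraries in depleted medium with vehicle lie above all those in rich medium with vehicle, and for ATF4 the groups overlap.

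Upstream sequence from RefSeq (GRCh38.p14) was searched in the 250 bases before each annotated start, on both strands. Windows were at hand for 9 of the 10 genes, with several starts for some and 18 windows in all. The C/EBP-ATF response element TGATGNAA was found upstream of ATF3, CHAC1 and CEBPG, in 3 of the 18 windows, and in 3.15% of all 34943 windows. For ATF3 and for CEBPG it was found before 1 annotated start and not before the other. The cyclic AMP response element TNACGTCA, a letter pattern that ATF and CREB factors bind, was found upstream of PPP1R15A, in 1 of the 18 windows, and in 2.66% of all windows. The endoplasmic reticulum stress element, CCAAT and CCAC at a fixed spacing, was found upstream of DDIT3, in 2 of the 18 windows, and in 0.28% of all windows. The pattern TGANTCA, the AP-1 site, was found upstream of DDIT3 and ATF5, in 3 of the 18 windows, and in 6.59% of all windows. The 2 DDIT3 windows overlap and hold the same stress element and the same AP-1 site, so each of these sites is counted in both windows. CCAAT alone was found in 6 of the 18 windows and in 32% of all windows. A match describes the letters in these windows and not a bound site. The stretches below are shown because they hold the matches for genes whose responses are given next, each written 5′ to 3′ on the gene's strand, with the match in capitals.
ATF3, chr1:212565157-212565333, plus strand, element 191 bases before the start: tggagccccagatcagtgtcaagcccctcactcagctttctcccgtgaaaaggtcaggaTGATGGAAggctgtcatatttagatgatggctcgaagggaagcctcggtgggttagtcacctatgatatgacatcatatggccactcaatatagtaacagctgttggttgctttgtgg
PPP1R15A, chr19:48872171-48872391, plus strand, element 58 bases before the start: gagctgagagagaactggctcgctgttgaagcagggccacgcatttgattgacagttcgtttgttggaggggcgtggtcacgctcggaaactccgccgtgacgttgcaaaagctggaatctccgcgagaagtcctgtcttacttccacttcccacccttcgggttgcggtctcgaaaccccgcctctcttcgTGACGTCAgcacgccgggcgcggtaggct
CHAC1, chr15:40953251-40953280, plus strand: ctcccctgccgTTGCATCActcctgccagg
CEBPG, chr19:33374060-33374089, plus strand: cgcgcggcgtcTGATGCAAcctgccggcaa
DDIT3, chr12:57520591-57520620, minus strand: gcggggCCAATGCCGGCGTGCCACtttctg
The CHAC1 match lies on the opposite strand, so its capitals read as the reverse complement of the pattern.

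In depleted medium with vehicle, 9 of the 10 genes rose and none fell against rich medium with vehicle (edgeR quasi-likelihood test, Benjamini-Hochberg adjusted p under 0.05 over all genes tested). Of all tested genes 15.5% were called higher and 15.4% lower in this comparison. The median log2 fold change of the 10 genes was 1.26, beside 0.045 over all genes tested. For 9 genes every depleted library lay above every rich library, which held for 23% of all tested genes. In this bulk RNA, a change in the RNA of each cell and a change in the mix of cells cannot be told apart.

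In rich medium with BafA1, 6 of the 10 genes rose and none fell against rich medium with vehicle. In this comparison 6.15% of all tested genes were called higher and 4.78% lower. The median log2 fold change was 0.83 for the 10 genes and 0.021 for all genes tested. For 8 genes every BafA1 library lay above every vehicle library, which held for 14.9% of all tested genes. The genes called were CEBPB, DDIT3, NUPR1, TRIB3, PPP1R15A and CHAC1. Without replicate 3 of rich medium with BafA1, the library that stood apart, 4 were called, and DDIT3 and CHAC1 were not. In that fit 3.51% of all tested genes were called higher and 1.91% lower.

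In depleted medium with BafA1, 3 of the 10 genes rose against depleted medium with vehicle, namely ATF3, TRIB3 and PPP1R15A, and none fell. Here 5.5% of all tested genes were called higher and 5.91% lower. The median log2 fold change was 0.53 for the 10 genes and -0.027 for all genes tested. For 7 genes every BafA1 library lay above every vehicle library and for 1 gene, ATF5, every one lay below, which held for 19.8% and 20.1% of all tested genes. Under BafA1, 7 of the 10 genes rose in depleted against rich medium, and none fell, with 10.5% of all tested genes called higher and 13.6% lower. The same 7 lay in every depleted library above every rich library, which held for 23.4% of all tested genes. The exceptions were ATF4, ATF5 and NUPR1. NUPR1 had a log2 fold change of 1.12 (SE 0.51, adjusted p = 0.13), and 1.70 without replicate 3 of rich medium with BafA1 (adjusted p = 0.037).

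**Figure D2:**
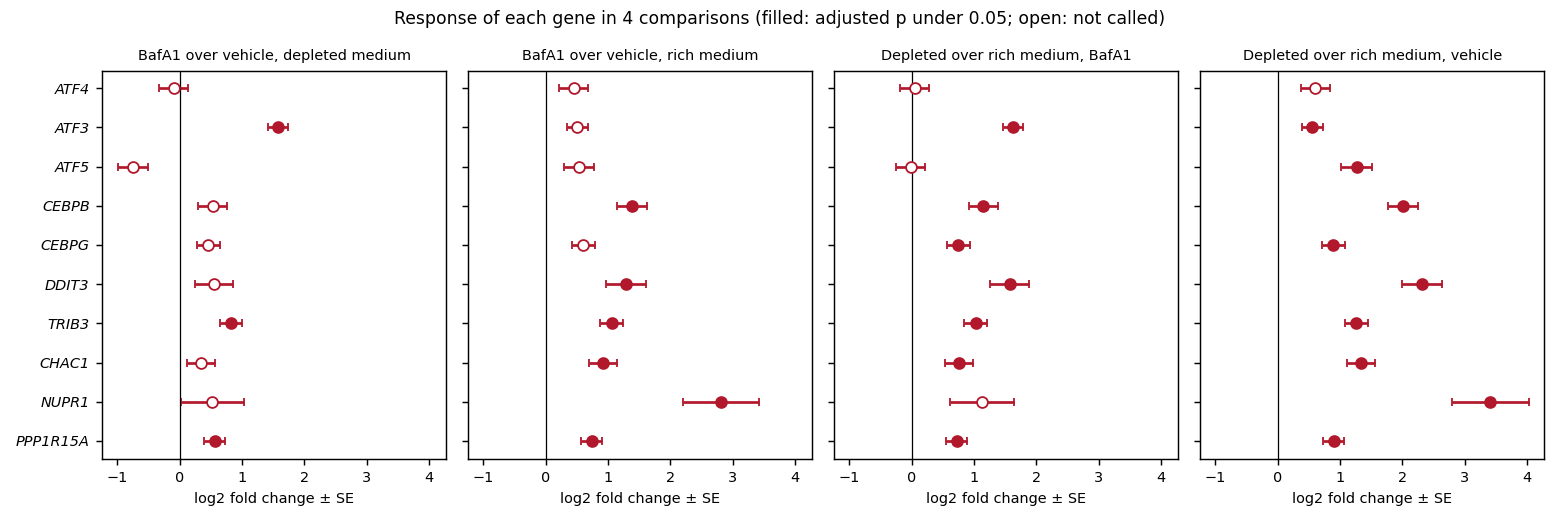
Log2 fold change of each gene (points) with its SE (bars) in 4 comparisons, filled where the adjusted p is under 0.05 and open otherwise. ATF3 stands at 1.58 for BafA1 in depleted medium and 0.51 for BafA1 in rich medium, and NUPR1 stands highest of the 10 genes in both comparisons with rich medium with vehicle.

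ATF4, the factor at the centre of the response (chr22:39520559-39522686), was measured at 599, 537 and 674 CPM in depleted medium with BafA1 and at 496, 556 and 695 CPM in rich medium with BafA1. It was measured at 614, 541 and 782 CPM in depleted medium with vehicle, against 451, 282 and 546 CPM in rich medium with vehicle. The 3 treated groups lay in 1 range, and each overlapped the highest library in rich medium with vehicle. The log2 fold changes over rich medium with vehicle were 0.50 for both treatments together (SE 0.23, adjusted p = 0.094), 0.45 for BafA1 in rich medium (SE 0.23, adjusted p = 0.23) and 0.60 for depletion (SE 0.23, adjusted p = 0.062), none of them called. In depleted medium the BafA1 difference was -0.10 (SE 0.23, adjusted p = 0.85), or 0.081 without depleted medium with vehicle replicate 3. The depletion difference passed the threshold in 5 of 21 alternatives, among them the DESeq2 test (log2 fold change 0.59, adjusted p = 0.040) and the fit without rich medium with vehicle replicate 3 (0.82, adjusted p = 0.019), and the combined difference passed without that same library (0.73, adjusted p = 0.025). ATF4 was the only one of the 10 genes with fractional read estimates, in 12 of 12 libraries. Its processed pseudogenes ATF4P1 to ATF4P4 held at most 30.5 reads in a library, beside 6058 to 32547 reads for ATF4.

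CEBPG, a C/EBP protein that forms dimers with ATF4 (chr19:33373709-33382686, element shown above), was measured at 213, 178 and 231 CPM in depleted medium with BafA1, and at 126, 107 and 138 CPM in rich medium with BafA1. It was measured at 152, 130.2 and 170.3 CPM in depleted medium with vehicle, against 93.8, 59.1 and 91.0 CPM in rich medium with vehicle. The combined treatment lay above all other libraries, rich medium with vehicle lay below all others, and the single treatments overlapped each other. CEBPG rose with depletion in vehicle (log2 fold change 0.89, SE 0.19, adjusted p = 0.0025) and with depletion under BafA1 (0.75, SE 0.19, adjusted p = 0.0097, lost without rich medium with BafA1 replicate 2, at 0.65 and adjusted p = 0.061). Its BafA1 responses of 0.46 in depleted medium (SE 0.19, adjusted p = 0.13) and 0.61 in rich medium (SE 0.19, adjusted p = 0.052) were not called. The value in rich medium passed in 6 of 21 alternatives, including the fits without rich medium with vehicle replicate 1 (0.72, adjusted p = 0.048) or replicate 3 (0.70, adjusted p = 0.043).

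CEBPB, another C/EBP partner of ATF4 and a factor of inflammatory and metabolic genes (chr20:50190583-50192690), kept the 4 groups fully apart. Its levels were 210.2, 222 and 273 CPM in depleted medium with BafA1 and 99.8, 84.0 and 135 CPM in rich medium with BafA1. They were 146, 161 and 183 CPM in depleted medium with vehicle, against 27.3, 37.3 and 56.6 CPM in rich medium with vehicle. CEBPB rose with depletion (log2 fold change 2.01, SE 0.24, adjusted p = 5.6e-05), with BafA1 in rich medium (1.39, SE 0.24, adjusted p = 0.0028) and with depletion under BafA1 (1.15, SE 0.24, adjusted p = 0.0028). These calls held without rich medium with BafA1 replicate 3 (1.18 for BafA1 in rich medium, adjusted p = 0.015). The BafA1 difference in depleted medium was 0.53 and not called (SE 0.23, adjusted p = 0.16), although the groups did not overlap. Its antisense neighbour CEBPB-AS1, which overlaps it on the opposite strand, held 27 to 167 reads in a library, beside 367 to 11423 reads for CEBPB. The strand setting of the counting is not given in the sources used here.

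ATF3, a stress-induced factor that can act as a repressor (chr1:212565407-212620777), was at 107, 127 and 122 CPM in depleted medium with BafA1 and at 36.4, 38.5 and 40.3 CPM in rich medium with BafA1. It was at 32.7, 39.1 and 47.4 CPM in depleted medium with vehicle, against 23.1, 26.8 and 30.9 CPM in rich medium with vehicle. The 3 libraries with both treatments lay above every other library, the single treatments overlapped each other, and both lay above rich medium with vehicle. ATF3 rose by 2.99-fold with BafA1 in depleted medium (log2 fold change 1.58, SE 0.16, adjusted p = 7.7e-05) and by 3.09-fold with depletion under BafA1 (1.63, SE 0.16, adjusted p = 2.0e-05). The single treatments gave 0.51 for BafA1 (SE 0.16, adjusted p = 0.056, not called) and 0.56 for depletion (SE 0.16, adjusted p = 0.017). The depletion call was lost without depleted medium with vehicle replicate 3 (0.39, adjusted p = 0.12), and the BafA1 value in rich medium passed without rich medium with vehicle replicate 3 (0.63, adjusted p = 0.032).

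DDIT3, also called CHOP, a factor tied to cell death under lasting stress of the endoplasmic reticulum (chr12:57516588-57520517, element shown above), was at 96.6, 88.9 and 100.95 CPM in depleted medium with BafA1 and at 22.2, 20.3 and 53.8 CPM in rich medium with BafA1. It was at 54.6, 61.8 and 78.8 CPM in depleted medium with vehicle, against 10.6, 10.98 and 17.4 CPM in rich medium with vehicle. The 4 groups did not overlap, but replicate 3 of rich medium with BafA1 lay just under the lowest library of depleted medium with vehicle, far from the other replicates of its group. DDIT3 rose with depletion in vehicle (log2 fold change 2.31, SE 0.32, adjusted p = 0.00016). It also rose with depletion under BafA1 (1.58, SE 0.31, adjusted p = 0.0024, and 2.17 without that replicate). Its rise with BafA1 in rich medium (1.29, SE 0.32, adjusted p = 0.019) was smaller and not called without that replicate (0.70, adjusted p = 0.082). The call was also lost without rich medium with vehicle replicate 1 (1.17, adjusted p = 0.070) or replicate 2 (1.17, adjusted p = 0.064). In depleted medium the BafA1 difference of 0.55 was not called (SE 0.31, adjusted p = 0.28). In the annotation the gene overlaps AC022506.1 on its own strand and MARS1 and MBD6 on the other, and how reads in the shared stretches were counted is not given in the sources used here. The estimates for DDIT3 were whole numbers in all libraries. MARS1 lay between 228 and 316 CPM in all libraries. MBD6 lay at 24.4 to 30.8 CPM in depleted medium with BafA1, 28.2 to 44.2 CPM in rich medium with BafA1, 41.2 to 45.5 CPM in depleted medium with vehicle and 17.8 to 25.2 CPM in rich medium with vehicle. As for DDIT3, its libraries in depleted medium with vehicle lay above those in rich medium with vehicle, and its part in the DDIT3 values was not tested.

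ATF5, a factor whose translation also rises when eIF2α is phosphorylated (chr19:49928906-49933935), was at 37.5, 30.3 and 34.6 CPM in depleted medium with BafA1 and at 27.2, 27.8 and 48.7 CPM in rich medium with BafA1. It was at 62.9, 43.2 and 66.2 CPM in depleted medium with vehicle, against 18.5, 24.1 and 28.9 CPM in rich medium with vehicle. It was the only one of the 10 genes whose mean was highest in depleted medium with vehicle, apart from ATF4, and in depleted medium its BafA1 libraries lay below its vehicle libraries. ATF5 rose with depletion in vehicle (log2 fold change 1.26, SE 0.24, adjusted p = 0.0012). Under BafA1 the depletion difference was -0.02 (SE 0.24, adjusted p = 0.97), or 0.31 without rich medium with BafA1 replicate 3. The BafA1 difference in rich medium was 0.53 and not called (SE 0.24, adjusted p = 0.17), and these groups overlapped. Without rich medium with BafA1 replicate 3 it was 0.20 (adjusted p = 0.65). The BafA1 difference in depleted medium was -0.75 and just missed the threshold (SE 0.24, adjusted p = 0.054). It passed in 10 of 21 alternatives, including the DESeq2 test (-0.74, adjusted p = 0.026) and the fits without rich medium with BafA1 replicate 3 (-0.75, adjusted p = 0.024), depleted medium with vehicle replicate 2 (-0.92, adjusted p = 0.045) or rich medium with vehicle replicate 1 or 3 (-0.75 each, adjusted p = 0.037 and 0.044). The neighbouring gene NUP62, which overlaps ATF5 on the opposite strand, lay at 40.6 to 53.2 CPM in depleted medium with BafA1, 74.2 to 107 CPM in rich medium with BafA1, 56.6 to 67.5 CPM in depleted medium with vehicle and 89.3 to 129 CPM in rich medium with vehicle. Its part in the ATF5 values was not tested.

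NUPR1, a small chromatin-associated stress protein (chr16:28532708-28538974), was the rarest of the 10 mRNAs and the one with the largest folds over rich medium with vehicle. It was at 4.86, 6.63 and 13.3 CPM in depleted medium with BafA1 and at 3.24, 1.84 and 6.32 CPM in rich medium with BafA1. It was at 5.08, 3.66 and 8.46 CPM in depleted medium with vehicle, against 1.19, 0.265 and 0.419 CPM in rich medium with vehicle, where only 10 to 16 reads were counted in a library. The 3 treated groups overlapped one another and lay above rich medium with vehicle. The combined treatment gave a log2 fold change of 3.93 over rich medium with vehicle (SE 0.62, adjusted p = 0.00016). Depletion in vehicle gave 3.41 (SE 0.62, adjusted p = 0.00089). Without rich medium with BafA1 replicate 3 the BafA1 value in rich medium was 2.24 (adjusted p = 0.043), beside 2.81 with it (SE 0.61, adjusted p = 0.010). In depleted medium the BafA1 difference was 0.52 (SE 0.51, adjusted p = 0.58), not called.

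TRIB3, a pseudokinase that binds ATF4 and restrains it (chr20:380760-397559), was at 593, 538 and 602 CPM in depleted medium with BafA1 and at 265, 255 and 330.1 CPM in rich medium with BafA1. It was at 289, 299 and 391 CPM in depleted medium with vehicle, against 129, 116 and 164 CPM in rich medium with vehicle. The combined treatment lay above all others and rich medium with vehicle below all others, with the single treatments overlapping. TRIB3 was called higher in all 4 comparisons of a single factor. The log2 fold changes were 0.82 for BafA1 in depleted medium (SE 0.18, adjusted p = 0.0093), 1.06 for BafA1 in rich medium (SE 0.18, adjusted p = 0.0028), 1.03 for depletion under BafA1 (SE 0.18, adjusted p = 0.0011) and 1.26 for depletion in vehicle (SE 0.18, adjusted p = 0.00018). The call for BafA1 in depleted medium was lost without depleted medium with vehicle replicate 1 (0.74, adjusted p = 0.059), and that for BafA1 in rich medium held without rich medium with BafA1 replicate 3 (0.94, adjusted p = 0.014).

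PPP1R15A, also called GADD34, the phosphatase subunit that directs protein phosphatase 1 to eIF2α and so ends the response (chr19:48872421-48876058), was at 111, 112 and 109 CPM in depleted medium with BafA1 and at 59.2, 68.8 and 74.1 CPM in rich medium with BafA1. It was at 62.8, 82.1 and 81.1 CPM in depleted medium with vehicle, against 31.4, 44.5 and 45.0 CPM in rich medium with vehicle. The groups were ordered as for TRIB3, with no overlap except between the single treatments. PPP1R15A was also called in all 4 comparisons of a single factor, at 0.56 for BafA1 in depleted medium (SE 0.16, adjusted p = 0.038), 0.74 for BafA1 in rich medium (SE 0.17, adjusted p = 0.011), 0.72 for depletion under BafA1 (SE 0.16, adjusted p = 0.0054) and 0.90 for depletion in vehicle (SE 0.17, adjusted p = 0.00095). The first of these calls was lost when any 1 of the 6 depleted-medium libraries, or replicate 1 or 2 of rich medium with BafA1, was left out (0.44 to 0.63, adjusted p 0.052 to 0.18). For BafA1 in rich medium the value without rich medium with BafA1 replicate 3 was 0.67 (adjusted p = 0.049).

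CHAC1, an enzyme that breaks down glutathione (chr15:40953471-40956512), was at 40.3, 37.7 and 39.2 CPM in depleted medium with BafA1 and at 19.4, 20.6 and 29.3 CPM in rich medium with BafA1. It was at 28.1, 31.2 and 33.4 CPM in depleted medium with vehicle, against 7.52, 13.5 and 15.3 CPM in rich medium with vehicle. The combined treatment lay above all other libraries and the single treatments overlapped through replicate 3 of rich medium with BafA1. CHAC1 rose with depletion in vehicle (log2 fold change 1.33, SE 0.23, adjusted p = 0.00056). Its rise with BafA1 in rich medium (0.91, SE 0.23, adjusted p = 0.019) was not called without rich medium with BafA1 replicate 3 (0.71, adjusted p = 0.096). Its rise with depletion under BafA1 (0.76, SE 0.22, adjusted p = 0.022) was lost when any 1 of 5 libraries was left out, the 3 with both treatments and replicates 1 and 2 of rich medium with BafA1 (0.65 to 0.79, adjusted p 0.053 to 0.11). The BafA1 difference in depleted medium was 0.34 (SE 0.22, adjusted p = 0.37), not called.

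With both treatments together, 8 of the 10 genes rose over rich medium with vehicle and none fell, where 21.6% of all tested genes were called higher and 21.6% lower. The median log2 fold change of the 10 genes was 1.88, beside 0.032 for all genes tested. For 9 genes the groups did not overlap, with the combined treatment above, which held for 26.4% of all tested genes. DDIT3 reached 2.87 (SE 0.33, adjusted p = 1.1e-05), CEBPB 2.54 (SE 0.25, adjusted p = 2.3e-06), ATF3 2.14 (SE 0.17, adjusted p = 4.4e-07) and TRIB3 2.08 (SE 0.19, adjusted p = 1.3e-06). ATF4 and ATF5 were not called, at 0.50 and 0.51. ATF5 passed without rich medium with BafA1 replicate 3 (0.52, adjusted p = 0.049). This comparison, depletion in vehicle and BafA1 in rich medium all share the libraries of rich medium with vehicle.

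The single treatments were also set against each other. In rich medium with BafA1 against depleted medium with vehicle, edgeR called 0 of the 10 genes, where 4.01% of all tested genes were called (3.14% higher and 0.875% lower). An unadjusted edgeR p under 0.05 was reached by 3 of the 10 genes, and the DESeq2 test called 2. The shares of all tested genes under those 2 criteria are not given here, so these counts have no background beside them. All 10 log2 fold changes were below 0, from -1.02 for DDIT3 (SE 0.31, adjusted p = 0.077) to -0.05 for ATF3 (SE 0.16, adjusted p = 0.90), with a median of -0.35. For 2 genes, CEBPB and DDIT3, every BafA1 library lay below every library of depleted medium with vehicle and for 0 above, which held for 16.1% and 17% of all tested genes. Without replicate 3 of rich medium with BafA1, DDIT3 (-1.61, adjusted p = 0.00059) and ATF5 (-1.06, adjusted p = 0.0079) were called lower with BafA1, and the share of all tested genes called lower was then 4.85%, with 6.27% called higher. For ATF4 and ATF3 the sign turned without depleted medium with vehicle replicate 3, to 0.013 and 0.10.

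Whether BafA1 acted differently in the 2 media was tested as an interaction, that is by subtracting the rich-medium response from the depleted-medium response. In this test 1 of the 10 genes was called higher and 1 lower, with 6.18% of all tested genes called, 2.35% higher and 3.83% lower. ATF3 had a larger BafA1 response in depleted medium, by 1.07 on the log2 scale (SE 0.23, adjusted p = 0.015). The call was lost without depleted medium with BafA1 replicate 2 (1.02, adjusted p = 0.051) or depleted medium with vehicle replicate 1 (0.94, adjusted p = 0.055). ATF5 differed the other way, by -1.28 (SE 0.34, adjusted p = 0.037). That call was lost in 9 of 20 alternatives, among them the fits without any 1 of the 3 libraries of depleted medium with BafA1, depleted medium with vehicle replicate 1 or 3, or rich medium with vehicle replicate 1 (-1.36 to -1.13, adjusted p 0.056 to 0.099), and the fit without rich medium with BafA1 replicate 3 (-0.95, adjusted p = 0.089). For the other 8 genes the difference was not called and lay below 0, from -2.29 for NUPR1 (SE 0.79, adjusted p = 0.10) to -0.15 for CEBPG (SE 0.27, adjusted p = 0.80). NUPR1 passed under the DESeq2 test (-2.18, adjusted p = 0.033) and without rich medium with vehicle replicate 1 (-2.93, adjusted p = 0.050), and CEBPB, at -0.86 (SE 0.33, adjusted p = 0.14), passed without rich medium with vehicle replicate 3 (-1.19, adjusted p = 0.025). Without rich medium with BafA1 replicate 3, NUPR1 stood at -1.72 (edgeR adjusted p = 0.23) and CEBPB at -0.65 (adjusted p = 0.31). In that fit DDIT3 stood at -0.15 (adjusted p = 0.84), beside -0.74 with all libraries (SE 0.44, adjusted p = 0.35). CEBPG stood at 0.036 without rich medium with vehicle replicate 2.

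**Figure D3:**
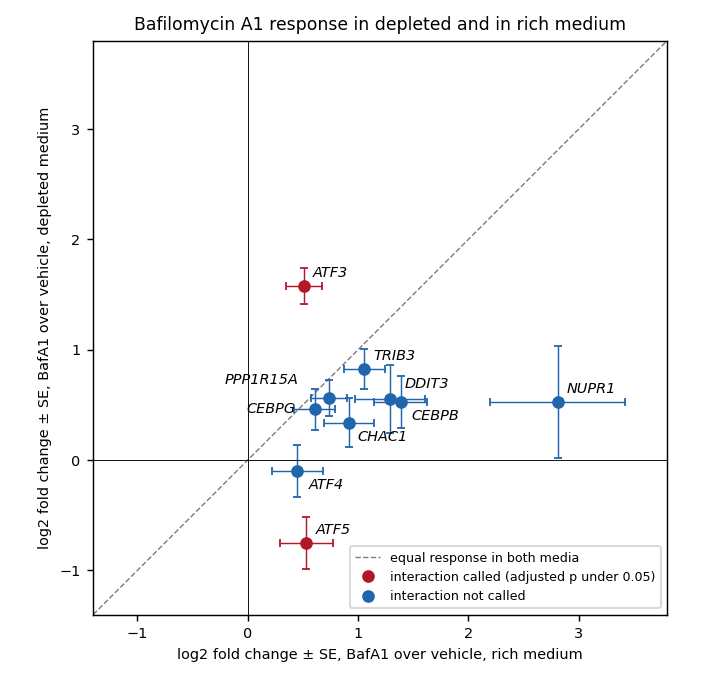
Log2 fold change of BafA1 over vehicle in depleted medium (y axis) against rich medium (x axis), with SE bars, for the 10 genes; red marks the genes whose interaction was called. ATF3 lies above the dashed line of equal response, and ATF5 lies below it with a value of -0.75 in depleted medium and 0.53 in rich medium. Neither ATF5 value was called on its own, and the rich-medium value was 0.20 without rich medium with BafA1 replicate 3.

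The upstream side of the pathway was described with 19 genes of the eIF2 kinases, eIF2 and eIF2B subunits and eIF2α phosphatases. With depletion in vehicle 2 rose and 4 fell, with BafA1 in rich medium 0 rose and 2 fell (1 without rich medium with BafA1 replicate 3), and with BafA1 in depleted medium 3 rose and 0 fell. Of all tested genes, 15.5% rose and 15.4% fell in the first of these comparisons, 6.15% and 4.78% in the second, and 5.5% and 5.91% in the third. The median log2 fold changes of the 19 genes were -0.16, -0.24 and 0.31, beside 0.045, 0.021 and -0.027 over all genes tested. The 3 calls with BafA1 in depleted medium were all lost without depleted medium with BafA1 replicate 2 or 3 or depleted medium with vehicle replicate 1 or 3. EIF2S1, which encodes eIF2α itself, averaged 90.0 ± 11.3 CPM in depleted medium with BafA1, 89.2 ± 12.5 CPM in rich medium with BafA1, 69.7 ± 6.75 CPM in depleted medium with vehicle and 155 ± 28.3 CPM in rich medium with vehicle (SD, n = 3 each). It fell with depletion in vehicle (log2 fold change -1.15, SE 0.17, adjusted p = 0.00019) and with BafA1 in rich medium (-0.80, SE 0.17, adjusted p = 0.0082). EIF2B3, a subunit of the exchange factor for eIF2, fell with depletion (-1.27, SE 0.19, adjusted p = 0.00021) and with BafA1 in rich medium (-0.82, SE 0.19, adjusted p = 0.012, and -0.69 without rich medium with BafA1 replicate 3, adjusted p = 0.057). The interaction was called for 4 of the 19 genes, all positive, beside 2.35% of all tested genes called positive, with EIF2S1 at 1.16 (SE 0.24, adjusted p = 0.013) and EIF2B3 at 1.36 (SE 0.26, adjusted p = 0.010). Only 2 of the 4 were called when any 1 of 9 libraries was left out, that is any but depleted medium with BafA1 replicate 1 and rich medium with vehicle replicates 1 and 2, and EIF2S1 and EIF2B3 kept their call in each of these fits.

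DNAJC3, an inhibitor of PERK and PKR, averaged 385 ± 61.3 CPM in depleted medium with BafA1, 157 ± 29.03 CPM in rich medium with BafA1, 264 ± 49.8 CPM in depleted medium with vehicle and 138 ± 19.15 CPM in rich medium with vehicle. It rose with depletion under BafA1 (log2 fold change 1.30, SE 0.19, adjusted p = 0.00033) and in vehicle (0.93, SE 0.19, adjusted p = 0.0022). EIF2AK3, which encodes PERK, rose with depletion under BafA1 (0.83, SE 0.21, adjusted p = 0.0088) and with BafA1 in depleted medium (0.73, SE 0.20, adjusted p = 0.032). The second of these EIF2AK3 calls was lost without any 1 of the 3 libraries of depleted medium with BafA1 or depleted medium with vehicle replicate 1 or 3 (0.62 to 0.78, adjusted p 0.056 to 0.13). PPP1R15B, the constitutive partner of PPP1R15A at the phosphatase, rose in those same comparisons, by 0.65 (SE 0.18, adjusted p = 0.015) and 0.64 (SE 0.18, adjusted p = 0.031). Its calls were lost without depleted medium with BafA1 replicate 2 (0.53 and 0.52, adjusted p = 0.081 and 0.14) and 1 of them without rich medium with BafA1 replicate 2, depleted medium with BafA1 replicate 3, or depleted medium with vehicle replicate 1 or 3.

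Among 40 other genes known as ATF4 targets, 23 rose and 2 fell with depletion in vehicle, with a median log2 fold change of 0.75, beside 15.5% and 15.4% of all tested genes and a median of 0.045. With BafA1 in rich medium 13 rose and 1 fell, at a median of 0.39, beside 6.15% and 4.78% of all tested genes and a median of 0.021, and without rich medium with BafA1 replicate 3 the counts were 10 and 0, beside 3.51% and 1.91%. With BafA1 in depleted medium 5 rose and 2 fell, at a median of 0.26, beside 5.5% and 5.91% of all tested genes and a median of -0.027, and the counts were 9 and 3 without rich medium with vehicle replicate 1. Under BafA1, 13 rose and 3 fell in depleted against rich medium (16 and 2 without rich medium with BafA1 replicate 3), beside 10.5% and 13.6% of all tested genes. With both treatments together 24 rose and 4 fell, beside 21.6% in each direction. HERPUD1, which serves the degradation of misfolded proteins of the endoplasmic reticulum, averaged 689.7 ± 53.3 CPM in depleted medium with BafA1, 281 ± 38.7 CPM in rich medium with BafA1, 382 ± 56.3 CPM in depleted medium with vehicle and 114 ± 8.14 CPM in rich medium with vehicle, and rose by 0.85 with BafA1 in depleted medium (SE 0.17, adjusted p = 0.0045). SLC7A5, a transporter of large neutral amino acids, moved the other way there, with 268 ± 30.4 CPM in depleted medium with BafA1 and 587 ± 137 CPM in depleted medium with vehicle (log2 fold change -1.13, SE 0.25, adjusted p = 0.0095). It averaged 674 ± 78.9 CPM in rich medium with BafA1 and was highest in rich medium with vehicle, at 1336 ± 519 CPM. The SLC7A5 call was lost without depleted medium with BafA1 replicate 3 (-1.06, adjusted p = 0.056) or depleted medium with vehicle replicate 2 (-0.93, adjusted p = 0.052). SLC6A9, a glycine transporter, rose with depletion under BafA1 (1.40, SE 0.23, adjusted p = 0.0007), and NIBAN1, a stress-induced regulator of translation, averaged 32.8 ± 11.2 CPM with both treatments and 0.352 ± 0.389 CPM in rich medium with vehicle (6.26, SE 1.19, adjusted p = 0.0020). The interaction was called for 4 of the 40 targets, all negative, beside 3.83% of all tested genes called negative, among them PHGDH, an enzyme of serine synthesis, at -0.91 (SE 0.22, adjusted p = 0.026). The PHGDH call was lost in 9 of 20 alternatives, including the fits without depleted medium with BafA1 replicate 2 or 3, rich medium with BafA1 replicate 2 or 3, or any 1 library of depleted medium with vehicle (adjusted p 0.054 to 0.084). Those same removals left 1 or 2 of the 4 calls, and without rich medium with vehicle replicate 2 the count was 1 higher and 7 lower.

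The other arms of the unfolded protein response were described with 22 genes tied to IRE1 and ATF6. With depletion in vehicle 8 rose and 0 fell, with depletion under BafA1 13 rose and 0 fell, and with BafA1 in depleted medium 3 rose and 0 fell. Of all tested genes, 15.5% rose and 15.4% fell in the first of these comparisons, 10.5% and 13.6% in the second, and 5.5% and 5.91% in the third. For the 22 genes the median log2 fold changes were 0.45, 0.76 and 0.26, beside 0.045, 0.012 and -0.027 over all genes tested. With BafA1 in rich medium 3 rose and 0 fell, at a median log2 fold change of -0.12, beside 6.15% and 4.78% of all tested genes and a median of 0.021, and all 3 calls (ERN1, SYVN1 and DNAJB9) were lost without rich medium with BafA1 replicate 3 (adjusted p 0.077 to 0.091), and 1 was left without rich medium with vehicle replicate 1. ERN1, which encodes IRE1α, averaged 162 ± 15.3 CPM in depleted medium with BafA1, 46.4 ± 10.95 CPM in rich medium with BafA1, 73.8 ± 11.2 CPM in depleted medium with vehicle and 26.0 ± 6.26 CPM in rich medium with vehicle. It rose by 1.14 with BafA1 in depleted medium (SE 0.20, adjusted p = 0.0024) and by 1.81 with depletion under BafA1 (SE 0.20, adjusted p = 4.4e-05). HSPA5, the chaperone BiP, rose with depletion under BafA1 (1.60, SE 0.28, adjusted p = 0.00096). ATF6 averaged 199 ± 35.7 CPM in depleted medium with BafA1, 77.2 ± 7.83 CPM in rich medium with BafA1, 91.8 ± 9.41 CPM in depleted medium with vehicle and 74.9 ± 11.2 CPM in rich medium with vehicle, and was the 1 gene of this list with a called interaction (2.35% of all tested genes were called positive and 3.83% negative), at 1.07 (SE 0.23, adjusted p = 0.017). That call was lost without depleted medium with BafA1 replicate 2 (0.94, adjusted p = 0.056) or depleted medium with vehicle replicate 1 (1.02, adjusted p = 0.060), the same libraries whose removal ended the ATF3 interaction.

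**Figure D4:**
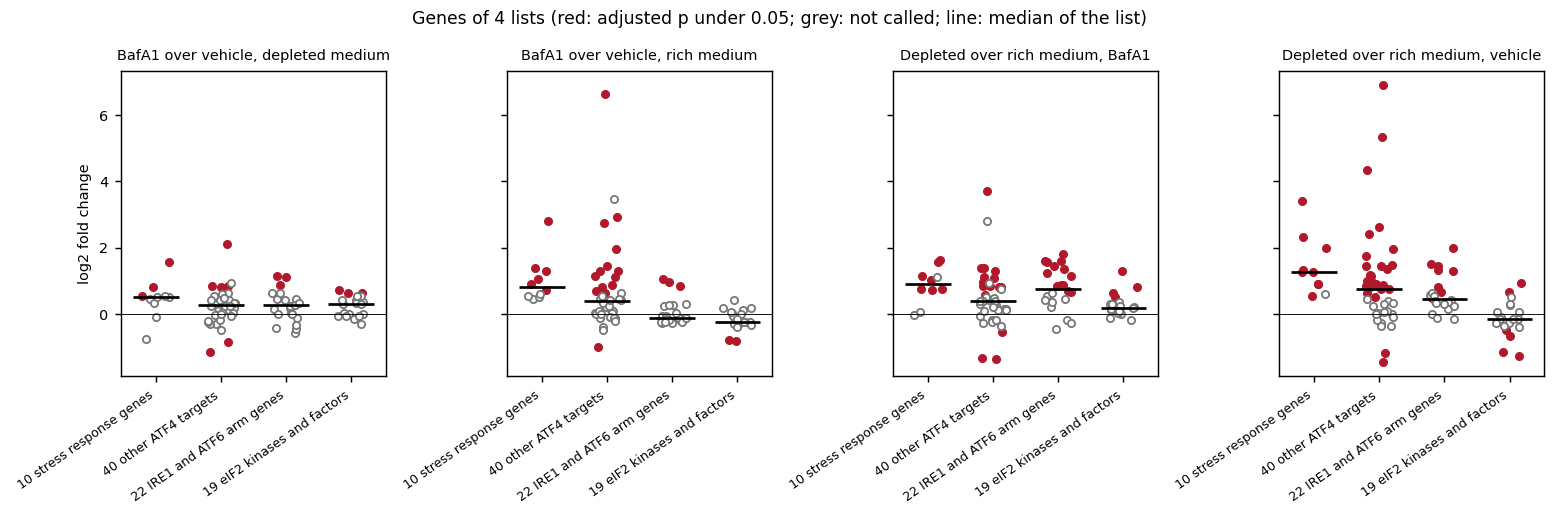
Log2 fold change (y axis) of the genes of 4 lists (x axis) in 4 comparisons, red where the adjusted p is under 0.05 and grey otherwise, with a line at each list's median. With depletion in vehicle the medians are 1.26 for the 10 genes and 0.75 for the 40 other ATF4 targets.

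Of 33 other basic leucine zipper factors, the family from which most of these transcription factors come, 31 were tested. With depletion in vehicle 10 rose and 1 fell, with BafA1 in rich medium 8 rose and 1 fell, with BafA1 in depleted medium 4 rose and 1 fell, and with depletion under BafA1 7 rose and 3 fell. In the same order, 15.5% of all tested genes rose and 15.4% fell, 6.15% rose and 4.78% fell, 5.5% rose and 5.91% fell, and 10.5% rose and 13.6% fell. For the 31 factors the median log2 fold changes were 0.31, 0.27, 0.23 and 0.23, beside 0.045, 0.021, -0.027 and 0.012 over all genes tested. For BafA1 in rich medium, 4 rose and 1 fell without rich medium with BafA1 replicate 3 (beside 3.51% and 1.91% of all tested genes), and 3 rose and 0 fell without replicate 2. For BafA1 in depleted medium, 2 or 3 rose without depleted medium with BafA1 replicate 2 or 3 or any 1 library of depleted medium with vehicle, and 7 without rich medium with vehicle replicate 1. For depletion under BafA1, 5 rose and 1 fell without depleted medium with BafA1 replicate 2 or 3 or rich medium with BafA1 replicate 2. CEBPA, a C/EBP factor of differentiated cells, averaged 181 ± 19.9 CPM in depleted medium with BafA1, 107 ± 19.8 CPM in rich medium with BafA1, 155 ± 22.8 CPM in depleted medium with vehicle and 35.1 ± 12.7 CPM in rich medium with vehicle, and rose by 1.60 with BafA1 in rich medium (SE 0.23, adjusted p = 0.0010). MAF rose by 3.38 with depletion in vehicle (SE 0.34, adjusted p = 2.1e-05) and by 2.36 with BafA1 in rich medium (SE 0.34, adjusted p = 0.00095). CREB3, a factor released from the endoplasmic reticulum and Golgi membranes, averaged 72.7 ± 5.12 CPM in depleted medium with BafA1, 38.4 ± 4.22 CPM in rich medium with BafA1, 33.3 ± 3.69 CPM in depleted medium with vehicle and 34.1 ± 4.12 CPM in rich medium with vehicle, and rose by 1.13 with BafA1 in depleted medium (SE 0.15, adjusted p = 0.00047). CEBPD fell there, at 17.8 ± 2.61 CPM in depleted medium with BafA1 and 33.5 ± 2.57 CPM in depleted medium with vehicle (-0.91, SE 0.23, adjusted p = 0.017). The CEBPD call was lost without depleted medium with BafA1 replicate 2 or 3 or depleted medium with vehicle replicate 2 or 3 (adjusted p 0.054 to 0.089).

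The gene with the most similar profile over the 12 libraries was looked up for each of the 10 genes among 11049 genes by Pearson's r of log2 CPM, as a description only, since the libraries share groups and depth. For ATF4 it was TPT1 (r = 0.98), for CEBPG SH3YL1 (0.99), for CEBPB TOM1 (0.99) and for ATF3 ZBTB18 (0.99). For ATF5 it was NFYC (0.97), for NUPR1 OTUD1 (0.98), for TRIB3 SLC25A20 (0.99) and for PPP1R15A ZNF853 (0.98). SESN2, a sestrin induced by ATF4, was among the nearest for CHAC1 (0.98).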

How the data were processed

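RNA was measured in 12 libraries from stranded, ribosomal RNA-depleted total RNA, per the labels' protocols. The authors deposited an estimated count, a TPM value and a length per gene for each sample, per the file headers, and 5.08% of the estimated counts are not whole. The authors also deposited 1 table of whole counts over all samples, with 13518 genes and values within 0.5 of those estimates. DRAGEN and GRCh38 are named in the submitters' processing notes, while the sources used here give neither annotation release nor strand setting. Nothing in the labels says that replicates were separate cultures, so p-values reflect only how these samples vary, and that variation may be technical.

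Estimated counts were rounded. Genes were filtered with filterByExpr (minimum count 10, minimum total 15), libraries scaled by TMM, and all 12 fitted together in edgeR 4.0.16 (R 4.3.3) with robust quasi-likelihood tests, a mean per group, 8 residual degrees of freedom and Benjamini-Hochberg adjustment over 18047 genes. A gene was called at an adjusted p under 0.05. The SE is the absolute log2 fold change divided by the root of F. The script was tested on simulated data. Of the deposited symbols 51557 matched RefSeq (GRCh38.p14), the source of coordinates and upstream sequence.

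The 10 genes, the lists and the tests were chosen with earlier results of these data known. All 10 are named. From each other list, up to 3 called genes of at least 1 CPM with the largest change were eligible in each comparison, and some are left out. The nearest profiles were searched among genes of at least 5 CPM, and those of DDIT3 and CHAC1 are not all reported here. Alternatives were DESeq2 1.42.0 size factors and test, no filter, fits of the 6 libraries compared, a replicate block, the whole-count table, library sizes without mitochondrial, ribosomal and small RNA genes, a fold minimum of 1.5, removal of 2 libraries (rich medium with vehicle replicate 1, the shallowest, and rich medium with BafA1 replicate 3), and each library left out, 21 in all and 20 for the interaction, which needs all 4 groups.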

Additional observations from a re-analysis of the deposited data

Results flagged for a closer look

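The BafA1 response differed between media by the interaction test for 2 of the 10 genes. For ATF3 it was larger in depleted than in rich medium by 1.07 on the log2 scale (SE 0.23, edgeR adjusted p = 0.015, n = 3 libraries per group), and for ATF5 the difference was -1.28 (SE 0.34, edgeR adjusted p = 0.037). Both calls were lost without depleted medium with BafA1 replicate 2 or depleted medium with vehicle replicate 1. The ATF5 call was also lost in other fits, such as that without rich medium with BafA1 replicate 3 (-0.95, edgeR adjusted p = 0.089). In depleted medium all 3 BafA1 libraries lay above all vehicle libraries for ATF3 and below them for ATF5, which held for 19.8% and 20.1% of all tested genes. Groups of 3 are too small for a test of single outlying libraries.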

How the results depend on the processing

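Of 1460 values of the 10 genes under the alternatives, 1331 kept their direction and side of the threshold, 55 lost the call, 63 gained it and 11 changed sign. The number of genes called for BafA1 in rich medium, 6 of 10, was 8 under the DESeq2 test and with the whole-count table, 3 in the fit of the 6 libraries compared, 1 with a minimum fold of 1.5, 3 without 2 libraries (the shallowest, rich medium with vehicle replicate 1, and rich medium with BafA1 replicate 3), and 4 to 8 with each library left out. For BafA1 in depleted medium the 3 became 5 with no filter, 7 in the 6-library fit, 1 with the minimum fold, 5 without the 2 libraries and 1 to 4 with each left out. For depletion under BafA1 the 7 became 2 with the minimum fold and 5 to 8 with each left out. For depletion in vehicle the 9 became 6 with the minimum fold and 8 to 10 with each left out, and for both treatments together the 8 became 8 to 9 with each left out. For rich medium with BafA1 against depleted medium with vehicle the 0 became 2 under the DESeq2 test, 3 with no filter, 4 without the 2 libraries and 0 to 2 with each left out. For the interaction the 2 became 4 with no filter, 0 with the minimum fold, 1 without the 2 libraries and 0 to 3 with each left out. With the replicate number as a block the counts were 9 for BafA1 in rich medium, 10 for depletion in vehicle, 6 for BafA1 in depleted medium, 8 for depletion under BafA1, 10 for both treatments, 3 for the single treatments against each other and 4 for the interaction. Calls among all tested genes are given below only as ranges, so the counts in this paragraph have no background from the same fit. Whether they moved with the calls among all genes was not tested. Whether the numbers pair the samples is not settled by the values. Same-numbered deviations correlated only between -0.08 and 0.23, but 10 of 12 libraries correlated best with their own number. The main fit used no pairing.

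With each library left out in turn, the genes called among all tested ranged from 1012 to 2656 for BafA1 in rich medium, 3748 to 6075 for depletion in vehicle, 878 to 3074 for BafA1 in depleted medium, 2346 to 5499 for depletion under BafA1, 6333 to 7948 for both treatments, 138 to 2078 between the single treatments and 393 to 1844 for the interaction. Under the other alternatives they ranged from 213 to 2971 for BafA1 in rich medium (1971 in the report), 1890 to 6504 for depletion in vehicle (5577), 262 to 4259 for BafA1 in depleted medium (2058), 1104 to 6021 for depletion under BafA1 (4352), 3903 to 8468 for both treatments (7797), 132 to 3460 between the single treatments (724) and 139 to 2070 for the interaction (1116). The calls among the 40 other ATF4 targets ranged from 5 to 19 for BafA1 in rich medium (14), 16 to 27 for depletion in vehicle (25), 0 to 14 for BafA1 in depleted medium (7) and 6 to 24 for depletion under BafA1 (16). For the 22 genes of IRE1 and ATF6 these ranges were 0 to 3 (3), 5 to 11 (8), 1 to 6 (3) and 7 to 16 (13), for the 19 eIF2 genes 0 to 2 (2), 2 to 8 (6), 0 to 7 (3) and 1 to 5 (4), and for the 31 other leucine zipper factors 2 to 14 (9), 6 to 15 (11), 1 to 9 (5) and 5 to 14 (10), in the same order of comparisons.

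Signs changed for uncalled values only. ATF4 stood at 0.081 for BafA1 in depleted medium without depleted medium with vehicle replicate 3 (range -0.21 to 0.081 with each library left out), and at -0.034 and -0.052 for depletion under BafA1 without depleted medium with BafA1 replicate 3 or rich medium with BafA1 replicate 1 (-0.052 to 0.20). ATF5 stood there at 0.028 with the block, 0.31 without the 2 libraries or without rich medium with BafA1 replicate 3, and 0.063 without depleted medium with BafA1 replicate 2 (-0.17 to 0.31). Between the single treatments ATF4 and ATF3 stood at 0.013 (-0.29 to 0.013) and 0.10 (-0.17 to 0.10) without depleted medium with vehicle replicate 3. The interaction of CEBPG was 0.036 without rich medium with vehicle replicate 2 (-0.26 to 0.036), and that of PPP1R15A was 0.044 without the 2 libraries. The cause of these changes was not tested. The 10 to 16 NUPR1 reads in rich medium with vehicle limit the precision of its folds.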
